A study of Mus musculus with 21 samples.

Results

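The transcripts of the mitochondrial genome were described in midbrain RNA of mice given the neurotoxin MPTP, with or without irisin, a peptide hormone released by working muscle. All genes whose chromosome was given as MT were taken, which came to 37 genes in each of 2 deposited tables, of 33829 genes in the pre-treatment experiment and of 55385 genes in the delayed experiment. They were 13 protein genes, 2 rRNA genes and 22 tRNA genes. Of these, 28 are read from the plus strand and 9 (mt-Nd6 and 8 tRNAs) from the minus strand. In each experiment 36 of the 37 had enough counts to be tested, the exception being the tRNA gene mt-Ts2.

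Bulk RNA of hand-dissected nigral tissue, labelled midbrain, was sequenced from 21 male C57BL/6 mice that were 6 weeks old by the labels, in 7 groups of 3 mice. In the pre-treatment experiment, Control_M mice were injected with ddH2O for 10 days, MPTP_M mice with ddH2O for 5 days and then MPTP at 30 mg/kg per day for 5 days, and Irisin_MPTP_M mice with irisin at 200 µg/kg per day for 5 days and then MPTP for 5 days. In the delayed experiment, CONTROL mice received ddH2O for 10 days, IRISIN mice ddH2O for 5 days and then irisin for 5 days, MPTP mice MPTP for 5 days and then ddH2O for 5 days, and MPTP_IRISIN mice MPTP for 5 days and then irisin for 5 days, at the same daily doses. No gene was altered in any group, every mouse was injected daily, and systemic MPTP acts as a subacute toxin model. In bulk tissue, fewer cells of a type and less RNA per cell cannot be told apart.

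The mitochondrial genome is a small circular DNA present in many copies per cell. Both of its strands are transcribed as long RNAs, from which the tRNAs are cut out, so that the rRNAs and mRNAs lying between them are released. Its mRNAs encode subunits of respiratory complexes I, III and IV and of ATP synthase, all other subunits being encoded in the nucleus, and complex I is the enzyme that the active product of MPTP inhibits in dopaminergic neurons.

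The tRNAs that carried the results below are shown as DNA, 5′ to 3′, with the anticodon in capitals, from the GENCODE M21 transcripts (build GRCm38). These are mt-Tg (glycine, chrMT:9391-9458, plus strand) and mt-Tr (arginine, chrMT:9808-9875, plus strand), which were low in CONTROL mice, mt-Ty (tyrosine, chrMT:5260-5326, minus strand) and mt-Te (glutamate, chrMT:14071-14139, minus strand), which lie on the strand of mt-Nd6, and mt-Ts2 (serine, chrMT:11613-11671, plus strand), the gene with almost no counts.
mt-Tg: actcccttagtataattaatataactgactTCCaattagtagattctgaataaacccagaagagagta
mt-Tr: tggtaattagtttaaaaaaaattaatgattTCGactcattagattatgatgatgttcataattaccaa
mt-Ty: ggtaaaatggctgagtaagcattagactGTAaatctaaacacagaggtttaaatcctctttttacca
mt-Te: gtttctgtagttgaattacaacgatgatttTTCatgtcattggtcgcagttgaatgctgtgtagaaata
mt-Ts2: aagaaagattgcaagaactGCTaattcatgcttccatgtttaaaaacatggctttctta

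Each pre-treatment mouse had 66.7 to 75.6 M counts on all genes, and each delayed mouse 48.8 to 77.2 M. The dissections held dopaminergic neurons in every group, with no marker of that list at 0 in every mouse, but also varied in choroid plexus, whose 5 markers summed to 11.5 to 1634 CPM (counts scaled to library size with TMM factors) among MPTP_M mice and to 38.8 to 1650.0 CPM among delayed mice. In the delayed experiment the 3 CONTROL mice stood apart from the other 9 mice in genes known to differ between C57BL/6 substrains. Crb1 was at 0.385 to 0.689 CPM in CONTROL mice and at 3.08 to 4.70 CPM in the other 9, Wdfy1 at 73.7 to 79.6 against 19.2 to 24.7 CPM, and Gabra2 at 54.9 to 72.2 against 24.7 to 37.3 CPM. Nnt, another such gene, was low in IRISIN replicate 1 (4.47 CPM) and MPTP_IRISIN replicate 2 (6.08 CPM). For every comparison with CONTROL mice, treatment and this difference between mice cannot be told apart.

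Levels of protein and rRNA genes were compared per length, as FPKM (fragments per kilobase of transcript, scaled to library size), with the order made within each experiment. Nuclear copies exist for 7 of them: mt-Nd4, mt-Nd4l, mt-Nd3, mt-Co1, mt-Co2, mt-Co3 and mt-Atp6. Counts on these copies, described below, are not part of the levels. The order of these genes among themselves and against the others is therefore uncertain. Among the subunits of complex IV, cytochrome c oxidase, mt-Co1 was the most abundant of the 15 protein and rRNA genes in both experiments, at 18179 ± 1068 FPKM (SD, n = 9) in pre-treatment mice and 15758 ± 914 FPKM (n = 12) in delayed mice, and its range overlapped with that of no other gene. Its partners mt-Co2 and mt-Co3 were at 10667 ± 766 and 8312 ± 584 FPKM in pre-treatment mice. In delayed mice they were at 6707 ± 617 and 6419 ± 397 FPKM. In these levels, without the copies, the catalytic subunit mt-Co1 lay above both other subunits in every mouse of both experiments.

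The 7 complex I subunits, which form part of the proton pumping arm of NADH dehydrogenase, spread widely. In pre-treatment mice the order was mt-Nd1 (9823 ± 604 FPKM), mt-Nd2 (5971 ± 444), mt-Nd4 (5259 ± 359.9), mt-Nd6 (3879 ± 397), mt-Nd4l (3094 ± 295), mt-Nd3 (2749 ± 156) and mt-Nd5 (2510.0 ± 244). In delayed mice it was mt-Nd1 (7544 ± 711 FPKM), mt-Nd2 (4695 ± 478), mt-Nd4 (4056 ± 442), mt-Nd4l (2611 ± 276), mt-Nd6 (2561 ± 397), mt-Nd5 (2068 ± 236) and mt-Nd3 (1496 ± 117). The first 3 held the same places in both experiments, whereas among the lower 4 the order differed by means whose ranges partly overlapped. Because mt-Nd4, mt-Nd4l and mt-Nd3 have nuclear copies, their places against the rest are uncertain. In delayed mice mt-Nd4l was above mt-Nd6 in 5 of 12 mice. mt-Cytb, the only mitochondrially encoded subunit of complex III, was at 8277 ± 574 FPKM in pre-treatment and 6618 ± 670 FPKM in delayed mice. In the pre-treatment order of all 15 genes, the ranges of neighbours did not overlap between mt-Co1 and mt-Atp8, between mt-Cytb and mt-Nd2 and between mt-Nd4 and mt-Rnr1. In the delayed order this held between mt-Co1 and mt-Nd1 and between mt-Nd4 and mt-Nd4l, and every other neighbour overlapped.

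The 2 subunits of ATP synthase lie on overlapping reading frames that share 43 bases. mt-Atp8 was at 11230 ± 1534 FPKM in pre-treatment and 5775 ± 553 FPKM in delayed mice. mt-Atp6 was at 9995 ± 981 FPKM in pre-treatment mice but at 1609.98 ± 161 FPKM in delayed mice. Relative to mt-Co3, which follows it on the same RNA, mt-Atp6 stood at 1.03 to 1.27 in every pre-treatment mouse and at 0.226 to 0.273 in every delayed mouse, so levels of mt-Atp6 are not comparable between the 2 tables, and levels of other genes in the 2 tables are given side by side only.

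The rRNAs of the mitochondrial ribosome lay below most mRNAs per length in these libraries. The study's methods do not say how RNA was selected for sequencing. These levels, and the rRNA shares given below, may therefore not be those of the tissue. mt-Rnr1, the small subunit rRNA, was at 3941 ± 511 FPKM in pre-treatment and 2361 ± 236 FPKM in delayed mice, and mt-Rnr2, the large subunit rRNA, at 3406 ± 369 and 2318 ± 237 FPKM. The plot of levels per length shows each mouse.

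**Figure D1:**
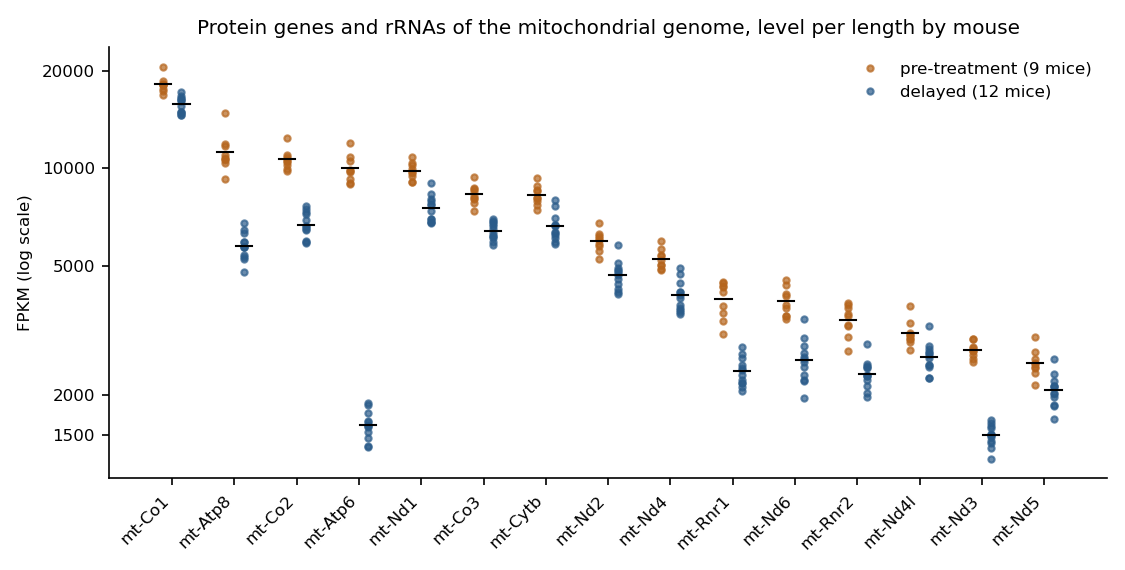
Level per length (FPKM, log axis) of the 13 protein genes and 2 rRNAs, with 1 point per mouse and a line at the mean of each experiment (9 pre-treatment mice, 12 delayed mice). mt-Co1 lies above all other genes in both experiments, and mt-Atp6 averages 9995 FPKM in pre-treatment mice and 1609.98 FPKM in delayed mice, the largest ratio between the tables among the 15 genes.

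The tRNAs carried little of the signal, 0.0297 to 0.0379% of all counts in pre-treatment mice and 0.0189 to 0.0303% in delayed mice. Such counts do not tell cut tRNAs from uncut long RNAs or from reads of neighbouring genes. Values given for tRNAs are therefore counts on their genes, not levels of finished tRNAs. Ordered by mean count, which is not a level per length but is read here for the depth behind each gene, the same 3 tRNAs had most counts in both experiments, mt-Te, mt-Tl1 (leucine) and mt-Tn (asparagine), with 7325, 3552 and 2613 counts in pre-treatment mice and 3944, 2687 and 1341 counts in delayed mice. The 3 with fewest counts were mt-Ts2, mt-Th (histidine) and mt-Tv (valine) in pre-treatment mice, and mt-Ts2, mt-Tv and mt-Tl2 (the other leucine tRNA) in delayed mice. mt-Ts2 had 1 count in each of the 9 pre-treatment mice and in 10 of the 12 delayed mice, with 59 counts in IRISIN replicate 2 and 8 in MPTP replicate 3.

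A block of chromosome 1 carries nuclear copies of 7 of the protein genes (chr1:24611535-24616197, build GRCm38, minus strand). Over the aligned bases, 5 copies were identical to their mitochondrial gene, namely those of mt-Nd4 (876 bases), mt-Nd4l (294), mt-Co3 (783), mt-Atp6 (678) and mt-Co2 (681). The copy of mt-Co1, Gm29216, matched at 486 of 492 bases, and the copy of mt-Nd3, Gm28438, at 344 of 345 bases. The single difference was T3C, counted from 1 at the first base of mt-Nd3, which is position 9461 of the mitochondrial genome and lies just after the last base of mt-Tg at 9458. The first bases of both are shown because the ratio of mt-Nd3 to this copy set the CONTROL mice apart, with the base that differs in capitals (mt-Nd3 at chrMT:9459-9518, plus strand, and Gm28438 at chr1:24613060-24613119, minus strand).
mt-Nd3: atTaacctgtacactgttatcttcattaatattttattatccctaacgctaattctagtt
Gm28438: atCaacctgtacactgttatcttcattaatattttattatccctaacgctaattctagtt

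The copies carried 2.23 to 3.64% of all counts, and most mirrored the mitochondrial gene. Counts of mt-Nd4l, mt-Co3 and mt-Co2 were 0.991 to 1.22 times those of their copies in all 21 mice. The ratio was 2.71 to 3.05 for mt-Nd4 and 4.32 to 5.74 for mt-Co1, both of which are longer than their copies. mt-Atp6 was at 0.916 to 1.07 times its copy Gm10925 in pre-treatment mice and at 0.217 to 0.244 times in delayed mice, so that the 2 tables did not overlap. mt-Nd3 was at 1.02 to 1.15 times Gm28438 in pre-treatment mice and at 1.03 to 1.12 times in the 9 delayed mice outside the CONTROL group, but at 0.848 to 0.968 times in CONTROL mice. How reads shared with a copy were counted is not given in the sources used here, so counts on these 7 genes are uncertain. The ratios are drawn in the plot of mitochondrial genes against their copies.

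**Figure D2:**
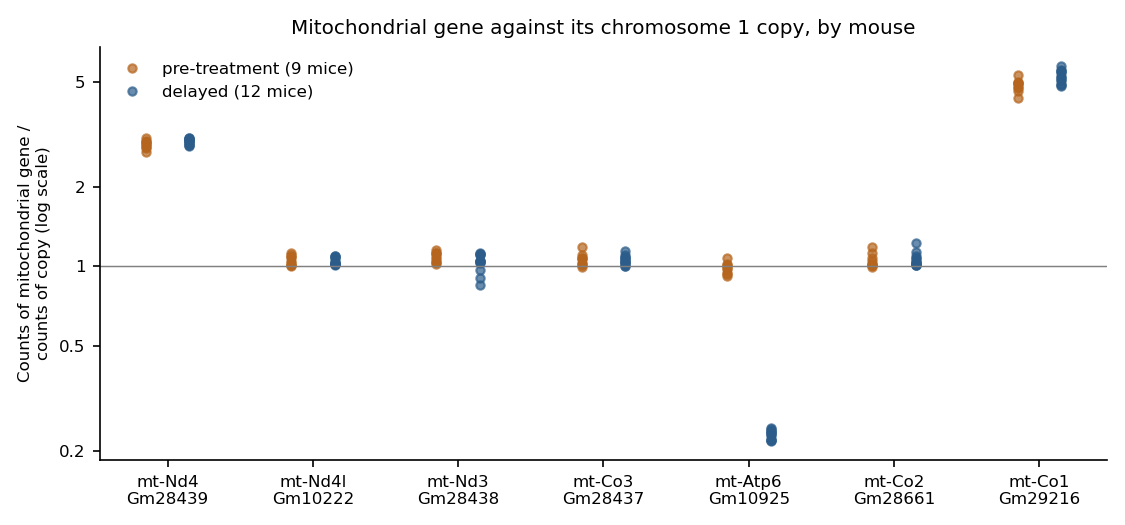
Counts of each of 7 mitochondrial genes divided by counts of its chromosome 1 copy (log axis), with 1 point per mouse and a line at 1. The ratio of mt-Atp6 to Gm10925 separates the experiments (0.916 to 1.07 in 9 pre-treatment mice, 0.217 to 0.244 in 12 delayed mice), and the 3 lowest delayed points of mt-Nd3 are the CONTROL mice (0.848 to 0.968).

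The share of all counts on the mitochondrial genome was 11.8 ± 1.17% in Control_M, 11.1 ± 0.302% in MPTP_M and 11.3 ± 0.224% in Irisin_MPTP_M mice (mean ± SD, n = 3 each). The Control_M mice were at 10.6, 12.9 and 11.9%, the MPTP_M mice at 11.2, 10.8 and 11.4% and the Irisin_MPTP_M mice at 11.5, 11.4 and 11.0%, so the groups overlapped. In the delayed experiment the share was 8.99 ± 0.511% in CONTROL, 8.27 ± 0.381% in IRISIN, 7.71 ± 0.0775% in MPTP and 8.38 ± 0.448% in MPTP_IRISIN mice. The CONTROL mice were at 8.48, 8.99 and 9.50%, the IRISIN mice at 8.71, 8.04 and 8.06%, the MPTP mice at 7.69, 7.65 and 7.80% and the MPTP_IRISIN mice at 7.87, 8.59 and 8.68%. All 3 MPTP mice were below all 9 other delayed mice, the nearest being MPTP_IRISIN replicate 1. The MPTP libraries were also deeper, at 57.8 to 77.2 M counts, than those of CONTROL (48.8 to 55.4 M) and MPTP_IRISIN mice (51.2 to 55.5 M). IRISIN libraries, at 52.9 to 59.0 M, overlapped with them. The part of depth in these shares was not tested. The rRNAs took 6.83 to 7.23% of the mitochondrial counts in CONTROL mice and 7.38 to 9.26% in the other 9 delayed mice, without overlap. These shares are sums over the chosen genes and were not tested.

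**Figure D3:**
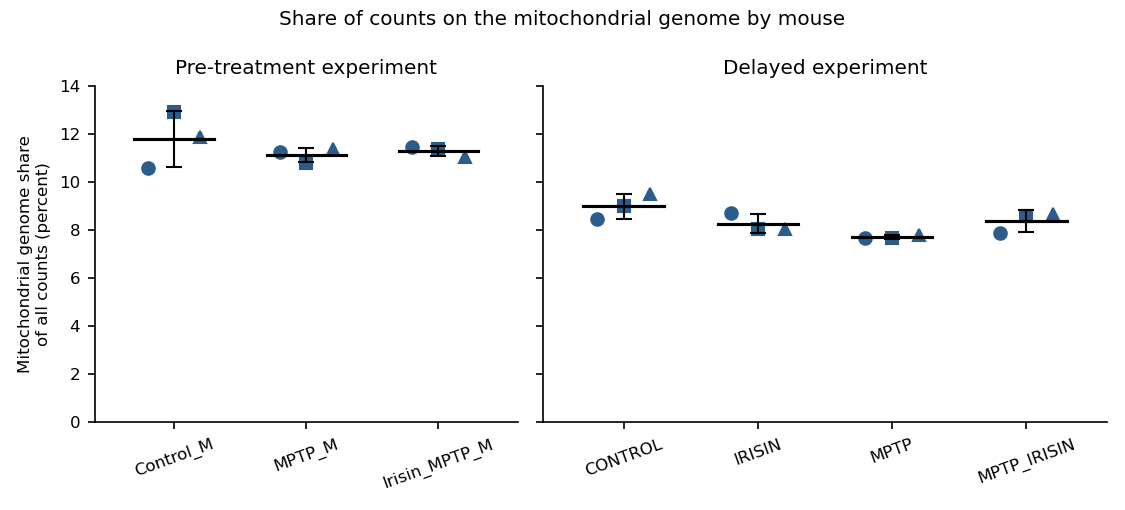
Share of all counts on the mitochondrial genome (percent) in each mouse, with 1 point per mouse and a line with bars at the group mean and SD (n = 3). The pre-treatment groups overlap between 10.6 and 12.9%, and the 3 MPTP mice of the delayed experiment lie between 7.65 and 7.80%, below the other 9 mice.

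The first comparison asked what MPTP did when ddH2O preceded it (MPTP_M against Control_M). In edgeR's quasi-likelihood test, with p adjusted by Benjamini-Hochberg over all 22641 tested genes, 0 of 36 members had an adjusted p under 0.05, against 0.0221% of all tested genes, and DESeq2 and limma also called 0. Only mt-Nd6 had an unadjusted p under 0.05 by edgeR (1 member), against 6.03% of all genes. The groups did not overlap for 1 member, the serine tRNA mt-Ts1, which was lower in MPTP_M mice, against 11.6% of all genes. Members are read from common long RNAs and share the scaling factor of each mouse. Here and in every comparison that follows, counts of members are therefore not counts of independent genes. The members' median log2 fold change was -0.06, beside -0.00 over all tested genes.

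mt-Nd6, the complex I subunit encoded on the minus strand, had the lowest value of the 13 protein genes and 2 rRNAs. It was at 2039.8, 2719 and 2521 CPM in Control_M and at 2169, 1972 and 2059 CPM in MPTP_M mice, and the lowest Control_M mouse lay within the MPTP_M range. It also had the smallest p, with a log2 fold change of -0.23 ± 0.10 (SE, edgeR adjusted p = 0.823). The value nearest to a rise was that of mt-Rnr2 at -0.00, with 6427 ± 563 CPM in MPTP_M and 6439.7 ± 225 CPM in Control_M mice (SD, n = 3). All 13 protein genes had log2 fold changes below 0, from -0.06 for mt-Co1 to -0.23 for mt-Nd6, and 7 of 13 did so without Control_M replicate 2. When counts were scaled by the mitochondrial sum, 7 of 13 were below 0. The protein genes make up most of that sum, so this scaling removes a shift common to them, here and in every comparison that follows. It shows only their differences from each other and leaves little room for all of them to lie on the same side of 0. Numbers of protein genes on each side of 0 under this scaling therefore do not test a common shift. Control_M replicate 2 had the highest mitochondrial share and also stood apart in Wdfy1, at 3.88 CPM beside 20.97 to 37.4 CPM in the other 8 pre-treatment mice. Of the 21 tested tRNAs, 14 had values above 0 and 7 below, between -0.36 and 0.26. Dopaminergic markers overlapped, at 243 to 472 CPM in MPTP_M and 246 to 409 CPM in Control_M mice.

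The second comparison addressed irisin given before MPTP (Irisin_MPTP_M against MPTP_M). It shares its MPTP_M mice with the first, so opposite values in both are not independent of each other. Again 0 of 36 members passed an adjusted p of 0.05 by edgeR, DESeq2 or limma, where edgeR called 0.0707% of all tested genes. An unadjusted p under 0.05 by edgeR was found for 4 members, all with lower values in Irisin_MPTP_M mice (both rRNAs, mt-Ty and the glutamine tRNA mt-Tq), against 6.22% of all genes. The groups did not overlap for 10 members, 4 higher and 6 lower, against 14.2% of all genes. The median log2 fold change of the members was 0.01, beside 0.00 over all tested genes.

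mt-Rnr2 had the smallest p among the protein and rRNA genes. Its CPM was 6839, 5786 and 6656 in MPTP_M mice and 4927, 5348 and 5780.3 in Irisin_MPTP_M mice, a narrow separation of the groups. Its log2 fold change was -0.26 ± 0.08 (edgeR adjusted p = 0.559). mt-Rnr1 was at 4782, 3799.7 and 4705 CPM in MPTP_M and at 3341, 3626 and 4008 CPM in Irisin_MPTP_M mice, so that MPTP_M replicate 2 lay among the latter, and its log2 fold change was the lowest of the 15 at -0.28 ± 0.09 (edgeR adjusted p = 0.664). mt-Nd6 stood at the other end, with 2234, 2380.4 and 2336 CPM in Irisin_MPTP_M mice, all above the 3 MPTP_M mice given above, and a log2 fold change of 0.16 ± 0.10 (edgeR adjusted p = 0.914). The 13 protein genes all had values above 0, from 0.00 to 0.16, which became 9 of 13 without MPTP_M replicate 2 and, with scaling by the mitochondrial sum, 10 of 13. Of the 9 minus strand genes, mt-Nd6 and its neighbour mt-Te were higher without overlap and mt-Ty, mt-Tq, the cysteine tRNA mt-Tc and mt-Ts1 lower without overlap. Markers of red blood cells moved with this comparison: their 5 genes summed to 231 to 455 CPM in Irisin_MPTP_M mice and to 549 to 810 CPM in MPTP_M mice, without overlap, and all 5 had an unadjusted p under 0.05 by edgeR, though 0 passed after adjustment. Dopaminergic markers summed to 182 to 296 CPM in Irisin_MPTP_M and 243 to 472 CPM in MPTP_M mice, which overlapped, while 1 of them, the dopamine transporter Slc6a3, was at 25.7 to 37.2 and 51.3 to 65.5 CPM, without overlap. The part of either in the result was not tested.

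The delayed experiment gave the only calls by edgeR. There, MPTP was first compared with CONTROL, to read the state 5 days after the last MPTP dose. mt-Tg was 5.51-fold higher and mt-Cytb 0.782-fold as high in MPTP as in CONTROL mice, and both passed the test. These 2 of 36 members were called by edgeR, against 0.132% of the 21922 tested genes, 6 by DESeq2 (mt-Tg, mt-Cytb, mt-Nd4, mt-Nd6, mt-Te and mt-Tl1) and 2 by limma on log2(FPKM + 1) (mt-Tg and mt-Tr). Unadjusted, 19 members had a p under 0.05 by edgeR, 2 higher and 17 lower in MPTP mice, against 8.33% of all genes. The groups did not overlap for 20 members, 3 higher and 17 lower, against 16.2% of all genes. The members' median log2 fold change was -0.26, beside -0.00 over all tested genes. It was 0.00 when counts were scaled by the mitochondrial sum, which raised the median of all genes to 0.25. That scaling holds the summed mitochondrial counts constant but does not fix the median of the members.

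mt-Tg, the glycine tRNA, was low in CONTROL mice. It was at 0.331, 0.555 and 0.917 CPM there, from 16 to 50 counts, and at 3.16, 3.63 and 3.22 CPM in MPTP mice. The groups lay far apart, and the log2 fold change was 2.46 ± 0.29 (edgeR adjusted p = 0.00752). The call held in 21 of 22 alternative settings, the exception being a fit on the 2 compared groups alone (adjusted p = 0.162). mt-Tg did not separate MPTP from the other mice, however, since it was at 3.59, 4.43 and 3.81 CPM in IRISIN and at 3.93, 4.79 and 4.48 CPM in MPTP_IRISIN mice.

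mt-Cytb, cytochrome b of complex III, was at 9155, 9923 and 10447 CPM in CONTROL and at 7556, 7451 and 8079 CPM in MPTP mice. All 3 MPTP mice were below all CONTROL mice, and mt-Cytb fell by 0.35 ± 0.06 on the log2 scale (edgeR adjusted p = 0.0467). With scaling by the mitochondrial sum, to which mt-Cytb itself belongs, the value was -0.10. This call stood close to the threshold and held in 5 of 22 alternative settings, with adjusted p from 0.00179 to 0.331. It was lost without CONTROL replicates 2 or 3 (adjusted p = 0.159 for each), without any one of the 3 MPTP mice (0.195, 0.249 and 0.0681) or IRISIN mice (0.0611, 0.0878 and 0.0684), and without MPTP_IRISIN replicates 2 or 3 (0.0760 and 0.0831), all by edgeR.

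The other protein genes lay on the same side without passing the edgeR test, though DESeq2 called mt-Nd4 and mt-Nd6. In complex I, mt-Nd6 was at 1583, 1758 and 2029 CPM in CONTROL and at 1281, 1285 and 1134 CPM in MPTP mice, without overlap. It had the lowest log2 fold change of the protein and rRNA genes, -0.54 ± 0.10 (edgeR adjusted p = 0.0885), which passed with DESeq2 (adjusted p = 0.000996) and without CONTROL replicate 1 (edgeR adjusted p = 0.0495). mt-Nd4 was at 6937, 7343 and 7725 CPM in CONTROL and at 5552, 5477 and 6145 CPM in MPTP mice, again without overlap, with a log2 fold change of -0.36 (edgeR adjusted p = 0.122). Those of mt-Nd5, mt-Nd1, mt-Nd2 and mt-Nd4l were -0.35, -0.31, -0.24 and -0.23, whereas mt-Nd3, whose ratio to its copy differed in CONTROL mice, was at -0.02. In complex IV the values were -0.31 for mt-Co2, -0.20 for mt-Co1 and -0.18 for mt-Co3, each without overlap between groups, and in ATP synthase -0.32 for mt-Atp6 and -0.19 for mt-Atp8. In all, 13 of 13 protein genes were below 0 and 10 had an unadjusted p under 0.05 by edgeR. With scaling by the mitochondrial sum, 7 of 13 were below 0. That scaling removes a common shift and leaves little room for all to lie on the same side, so it does not test one.

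The rRNAs did not share this pattern. mt-Rnr1 had the highest value of the protein and rRNA genes, with a log2 fold change of 0.03 ± 0.09 (edgeR adjusted p = 0.973) from 2229, 2484 and 2358 CPM in CONTROL and 2369, 2579 and 2254 CPM in MPTP mice, which overlapped. mt-Rnr2 was at -0.09. Among the 21 tRNAs, 14 were below 0 and 7 above, from -0.92 for mt-Ts1 to 2.46 for mt-Tg. On the minus strand, 8 of 9 genes were below 0, with a median of -0.35, beside -0.23 for the 27 tested plus strand genes. Among tRNAs alone, the medians were -0.32 for 8 on the minus strand and -0.22 for 13 on the plus strand.

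Dopaminergic markers moved with this comparison. Their 7 genes summed to 155 to 241 CPM in MPTP and to 290.1 to 334 CPM in CONTROL mice, without overlap, with 3 of the 7 lower at an unadjusted p under 0.05 by edgeR and 0 after adjustment. Their part in the result was not tested.

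IRISIN against CONTROL asked what irisin did without MPTP. This comparison shares its CONTROL mice with the one above, so like values in both are not independent of each other. By edgeR 1 of 36 members was called, mt-Tg, against 0.109% of all tested genes, while DESeq2 and limma each called 2, mt-Tg and mt-Tr. With no adjustment, 13 members had a p under 0.05 by edgeR, 6 higher and 7 lower, against 8.97% of all genes, and the groups did not overlap for 14, 7 in each direction, against 15.1% of all genes. The median log2 fold change of the members was -0.02, beside -0.00 over all tested genes.

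mt-Tg was higher in IRISIN than in CONTROL mice by a log2 fold change of 2.70 ± 0.29 (edgeR adjusted p = 0.00353), with a mean of 3.95 ± 0.436 CPM against 0.601 ± 0.296 CPM (SD, n = 3). This call also held in 21 of 22 alternative settings and was lost in the fit on the 2 compared groups alone (adjusted p = 0.150). mt-Tr, the arginine tRNA that follows mt-Nd3, was at 1.57, 1.34 and 1.49 CPM in CONTROL and at 2.59, 2.69 and 2.47 CPM in IRISIN mice, without overlap, and its log2 fold change of 0.82 had an edgeR adjusted p of 0.157. mt-Cytb was at 8539.5, 8122 and 7901 CPM in IRISIN mice, all below the CONTROL mice, at -0.27 ± 0.06 (edgeR adjusted p = 0.212). mt-Nd4 had the lowest value of the protein and rRNA genes, -0.29 ± 0.07 (edgeR adjusted p = 0.295), with 6447, 5809 and 5706 CPM in IRISIN mice, which were again below the CONTROL range. mt-Rnr1 had the highest, 0.18 ± 0.09 (edgeR adjusted p = 0.581), from 3013, 2306 and 2677 CPM in IRISIN mice, of which 1 lay within the CONTROL range. The 13 protein genes were all below 0 (8 of 13 with scaling by the mitochondrial sum), and 14 of 21 tRNAs were above 0. Markers of astrocytes and of striatal neurons, 5 genes each, were lower in IRISIN mice without overlap, at 2441 to 2497 against 2530.1 to 2623 CPM and at 73.4 to 79.6 against 86.1 to 124 CPM. Of each list 1 gene had an unadjusted p under 0.05 by edgeR and 0 passed after adjustment, and their part in the result was not tested.

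Since both comparisons with CONTROL mice turned on the same 3 animals, those were set against the other 9 delayed mice as a description chosen after seeing the data. For 5 of 36 members the ranges did not overlap, against 3.25% of all tested genes. The tRNAs mt-Tg, mt-Tr and mt-Tf (phenylalanine) were lower in all 3 CONTROL mice, at 0.331 to 0.917, 1.34 to 1.57 and 0.849 to 1.14 CPM, than in the other 9, at 3.16 to 4.79, 2.22 to 2.93 and 1.23 to 1.96 CPM. mt-Cytb and mt-Nd4 were higher in CONTROL mice, at 9155 to 10447 and 6937 to 7725 CPM, than in the other 9, at 7451 to 8661 and 5477 to 6472 CPM. mt-Tg and mt-Tr, both shown above, flank mt-Nd3, the gene whose ratio to its copy was below 1 in CONTROL mice alone. At the places of mt-Tg and mt-Tr the chromosome 1 block holds unannotated stretches of 69 and 74 bases between copies, where 69 and 73 were expected from the mitochondrial genome. Whether the placement of reads between the 2 loci differed in CONTROL mice was not tested, since the tables hold no reads. The plot of the CONTROL mice sets these transcripts beside the substrain-variable genes.

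**Figure D4:**
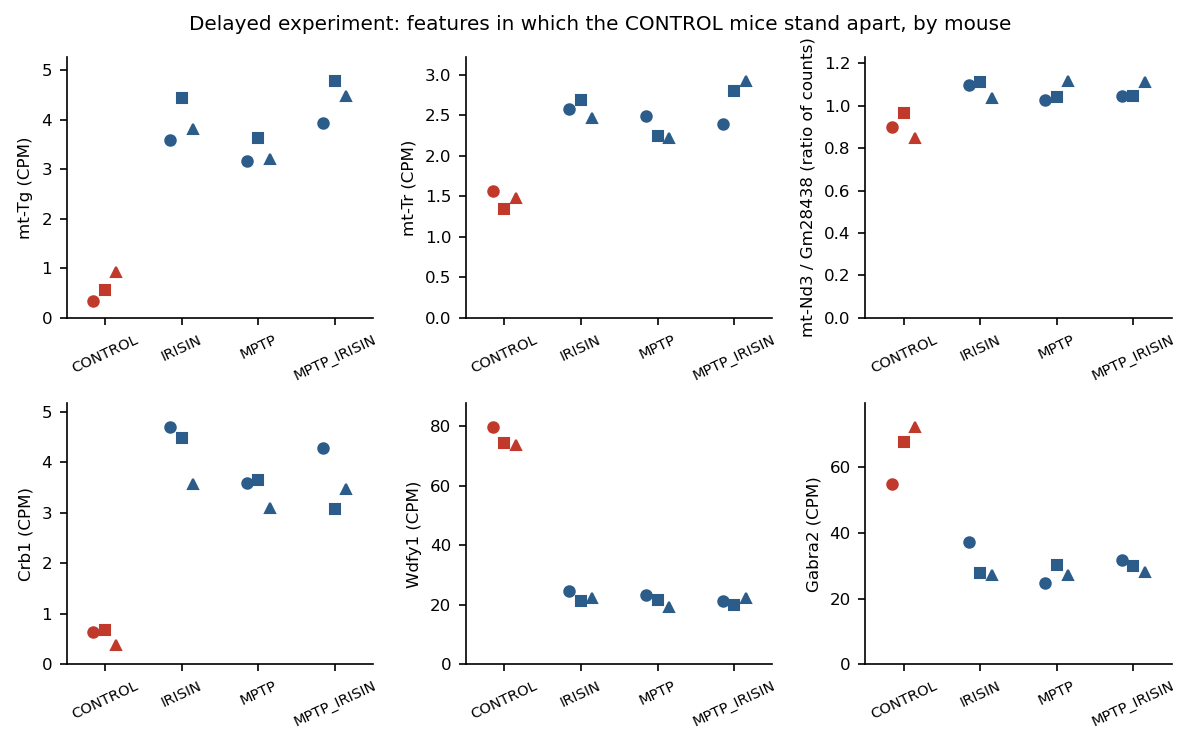
Delayed experiment, features in which the CONTROL mice stand apart, with 1 point per mouse in each of the 4 groups and each vertical axis starting at 0. For mt-Tg the 3 CONTROL mice lie at 0.331 to 0.917 CPM and the other 9 at 3.16 to 4.79 CPM, and for Crb1 at 0.385 to 0.689 and 3.08 to 4.70 CPM.

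Irisin after MPTP was examined by MPTP_IRISIN against MPTP, which uses no CONTROL mouse. It shares its MPTP mice with MPTP against CONTROL, so opposite values in these comparisons are not independent of each other. MPTP_IRISIN replicate 2 was low in Nnt, at 6.08 CPM beside 43.6 to 48.9 CPM in MPTP mice. The mice thus differed in a substrain-variable gene here too, and its part in the result was not tested. Transcripts of the mitochondrial genome had mostly higher values in MPTP_IRISIN mice, but none passed the test. By edgeR 0 of 36 members were called, against 0.00456% of all tested genes, by DESeq2 1 member, mt-Ty, and by limma 0. Before adjustment, 11 members had a p under 0.05 by edgeR, all higher in MPTP_IRISIN mice, against 3.9% of all genes. The groups did not overlap for 16 members, all higher, against 10.7% of all genes. As these members can move together, such counts do not stand for that many separate results. In this comparison 35 of 36 members had log2 fold changes above 0 and their median was 0.22, beside -0.00 over all tested genes. These became 29 members above 0 and a median of 0.08 with scaling by the mitochondrial sum, which took the median of all genes to -0.13.

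mt-Nd6 had both the smallest p and the highest value of the protein and rRNA genes. It was at 1281, 1285 and 1134 CPM in MPTP and at 1406, 1534 and 1505 CPM in MPTP_IRISIN mice, without overlap, and its log2 fold change was 0.26 ± 0.10 (edgeR adjusted p = 0.9995). Its level in MPTP_IRISIN mice was below that of the 3 CONTROL mice. mt-Nd3 was the only member below 0, at -0.02, with 614, 589 and 553 CPM in MPTP and 492, 658 and 586 CPM in MPTP_IRISIN mice, which overlapped. The other 11 protein genes lay between 0.08 for mt-Nd4l and 0.19 for mt-Nd5 and mt-Atp8. With scaling by the mitochondrial sum, 6 of 13 protein genes were above 0. mt-Rnr1 was at 0.19 and mt-Rnr2 at 0.17.

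Counts on the tRNA genes had larger differences than those on the mRNAs here. All 21 tested were above 0 under each of the 4 scalings. Their median log2 fold change was 0.40, beside 0.13 for the 13 protein genes. mt-Ty, the tyrosine tRNA shown above, was at 12.8, 12.04 and 11.3 CPM in MPTP and at 18.4, 17.2 and 18.5 CPM in MPTP_IRISIN mice. The gap between the groups was wide against their spread, and its log2 fold change was 0.58 ± 0.12 (edgeR adjusted p = 0.843, DESeq2 adjusted p = 0.0238). mt-Ts1 had the largest of the tRNA values, 1.16, at 0.835, 0.574 and 0.739 CPM in MPTP and 1.13, 1.71 and 1.95 CPM in MPTP_IRISIN mice, without overlap. The other tRNAs with an unadjusted p under 0.05 by edgeR were mt-Tl2 (0.69), mt-Td (aspartate, 0.67), mt-Ta (alanine, 0.52), mt-Tl1 (0.51), mt-Tc (0.49), mt-Tn (0.48) and mt-Ti (isoleucine, 0.40), all without overlap. The 9 minus strand genes, mt-Nd6 and the 8 tRNAs for alanine, asparagine, cysteine, tyrosine, serine, glutamine, glutamate and proline, were all above 0, with a median of 0.48, and 8 of them did not overlap, beside a median of 0.19 and 8 of 27 for the plus strand. Of those 27 genes, however, 14 are protein or rRNA genes. Among tRNAs alone, the median was 0.49 on the minus strand, with 7 of 8 not overlapping. On the plus strand it was 0.40, with 6 of 13 not overlapping. Dopaminergic markers overlapped between the 2 groups (158 to 198 and 155 to 241 CPM), as did red blood cell markers (382 to 869 and 309 to 499.6 CPM). Leaving the CONTROL group out of the fit, an alternative added after seeing the data, gave 0 called members and a median of 0.22. The values of all tested members are drawn in the plot of fold changes along the genome.

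**Figure D5:**
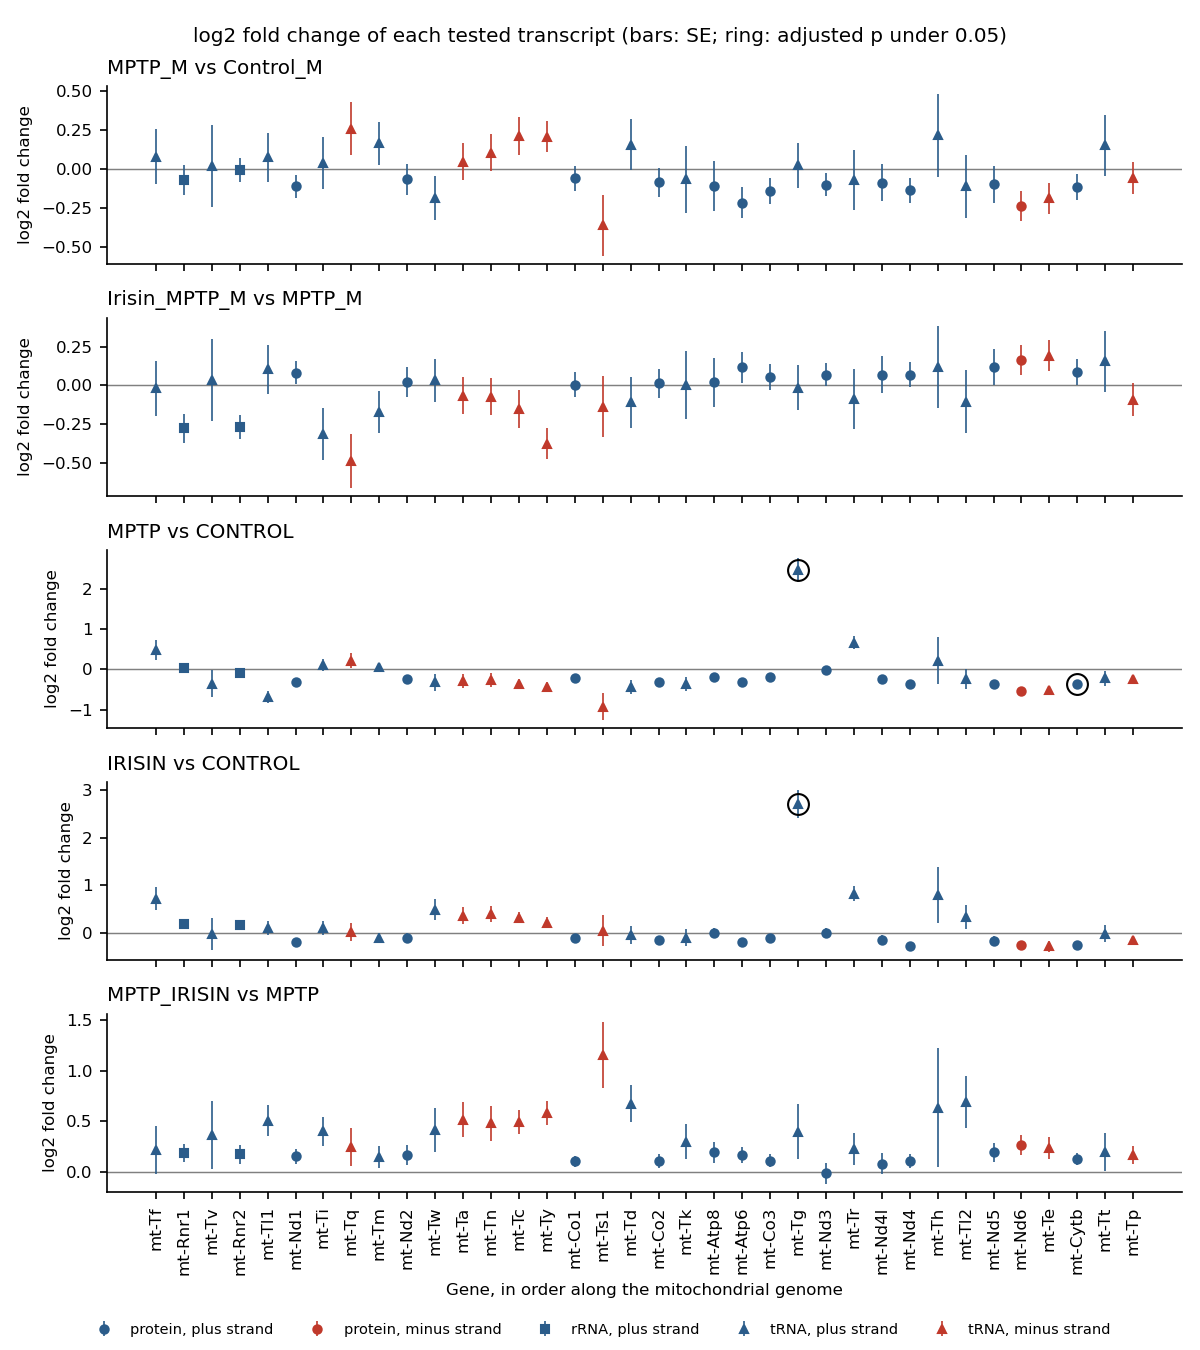
log2 fold change of each tested transcript, in order along the mitochondrial genome, for the comparisons of the 2 experiments, with bars of 1 SE, symbols by kind and strand and a ring where the edgeR adjusted p was under 0.05. mt-Tg (2.46 and 2.70) and mt-Cytb (-0.35) carry the rings in the comparisons with CONTROL mice, and all tRNAs lie above 0 in MPTP_IRISIN against MPTP.

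MPTP was also read without CONTROL mice, by MPTP_IRISIN against IRISIN, a comparison added after seeing the data. Here 0 of 36 members were called by edgeR, DESeq2 or limma, against 0.00456% of all tested genes by edgeR. An unadjusted p under 0.05 by edgeR was found for 3 members, the tRNAs mt-Tq (log2 fold change 0.45), mt-Ti (0.41) and mt-Tm (methionine, 0.32), against 3.88% of all genes. The groups did not overlap for 5 members, mt-Ti and mt-Tm higher and mt-Tl1, mt-Tc and mt-Tw (tryptophan) lower in MPTP_IRISIN mice, against 8.69% of all genes. The median log2 fold change of the members was 0.03 and the 13 protein genes lay between -0.06 and 0.05. Among protein and rRNA genes, mt-Rnr2 was lowest at -0.08 and mt-Atp6 highest at 0.05. mt-Cytb was at 7931, 8661 and 8634 CPM in MPTP_IRISIN mice, which overlapped with IRISIN mice. Summed markers of dopaminergic neurons (158 to 198 against 261 to 294 CPM) and astrocytes (2538 to 2668 against 2441 to 2497 CPM) did not overlap between MPTP_IRISIN and IRISIN mice, and their part in these values was not tested.

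Whether the effect of irisin differed after MPTP from that without it was tested as an interaction, the log2 fold change of MPTP_IRISIN over MPTP less that of IRISIN over CONTROL. By edgeR 0 of 36 members passed an adjusted p of 0.05, against 0.0411% of all tested genes, by DESeq2 1 (mt-Tg) and by limma 0. For 15 members the unadjusted p was under 0.05 by edgeR, 13 above and 2 below 0, against 5.57% of all genes. The members' median was 0.26, or -0.01 with scaling by the mitochondrial sum, which does not fix this median. mt-Cytb was at 0.39 ± 0.08 (edgeR adjusted p = 0.317), mt-Nd6 at 0.53 ± 0.14 (0.619 by the same test) and mt-Nd3 at -0.01. mt-Tg was at -2.31 ± 0.39 (edgeR adjusted p = 0.131) and passed when CONTROL replicate 3 was left out or counts were scaled by the mitochondrial sum. All of these values rest on the CONTROL mice.

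mt-Nd6 was followed across mice, as the member with the lowest value among the protein and rRNA genes in both MPTP comparisons with ddH2O mice. In the pre-treatment experiment its log2 CPM ran most closely with those of mt-Te (Pearson r = 0.92), mt-Nd3 (0.90) and mt-Nd1 (0.90) over 9 mice. In the delayed experiment these were mt-Te (0.98), mt-Nd5 (0.95) and mt-Nd1 (0.89) over 12 mice. mt-Te is the next gene on the same strand, and mt-Nd5 overlaps the end of mt-Nd6 by 14 bases on the opposite strand. In pre-treatment mice, however, mt-Nd5 was at 0.76. The other minus strand genes ran less closely with mt-Nd6 than mt-Te did. They lay from -0.32 (mt-Ty) to 0.48 (mt-Tp) in pre-treatment mice and from -0.11 (mt-Tq) to 0.78 (mt-Tp) in delayed mice. The points share library scaling and depth, and without knowledge of strand in the counting, reads of overlapping genes on opposite strands cannot be told apart. Of 9 pairs of neighbours that overlap, 3 are on opposite strands (mt-Ti with mt-Tq, mt-Co1 with mt-Ts1 and mt-Nd5 with mt-Nd6).

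Nuclear genes that act on these transcripts were read from a list of 61 tested genes for mitochondrial transcription, replication, and RNA cleavage, stability, decay and modification. By edgeR 0 of the 61 were called in any comparison, and DESeq2 and limma were not read for this list. The number with an unadjusted p under 0.05 by edgeR was 1 in MPTP_M against Control_M, 1 in Irisin_MPTP_M against MPTP_M, 2 in MPTP against CONTROL, 4 in IRISIN against CONTROL, 3 in MPTP_IRISIN against MPTP, 2 in MPTP_IRISIN against IRISIN and 1 in the interaction, where the same tests gave 6.03, 6.22, 8.33, 8.97, 3.9, 3.88 and 5.57% of all genes. The median log2 fold changes of the list lay between -0.05 and 0.06. Polrmt, the mitochondrial RNA polymerase, was at 24.1 ± 2.36 CPM in MPTP and 24.4 ± 1.40 CPM in CONTROL mice (SD, n = 3). Tfam, which binds the promoters and packages the genome, was at 39.8 ± 0.144 CPM in MPTP, 42.6 ± 2.80 CPM in CONTROL and 44.0 ± 2.06 CPM in MPTP_IRISIN mice, with log2 fold changes of -0.10 for MPTP over CONTROL and 0.15 for MPTP_IRISIN over MPTP. Lrpprc, which stabilizes mitochondrial mRNAs, was at 98.5 ± 1.97 and 96.9 ± 4.58 CPM in MPTP and CONTROL mice. Its partner Slirp had the smallest p of the list in MPTP_M against Control_M, with a log2 fold change of -0.53 (edgeR adjusted p = 0.823). In MPTP against CONTROL the smallest p was that of Fastkd5, listed under RNA stability, which was higher in MPTP mice (edgeR adjusted p = 0.309). Of the whole list, 1 gene was higher and 1 lower there at an unadjusted p under 0.05 by edgeR.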

How the data were processed

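Midbrain RNA of 21 mice was sequenced on Illumina NovaSeq. The authors deposited raw read counts and FPKM values per gene, one table for each experiment. The counts were made with featureCounts by the study's methods, and the submitters' processing notes name HISAT, StringTie, edgeR and mm9. The annotation and the use of strand are not given in the sources used here. Coordinates in the tables were those of GENCODE M21 (GRCm38) for all 37 mitochondrial genes and for 92.0 and 94.3% of all genes, although mm9 is named. The deposited FPKM values, scaled to length and library size, were used for levels between genes, and the counts for tests.

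Members and gene lists were chosen with earlier results of these data known. Each experiment was fitted by itself over all genes with edgeR 4.0.16 (R 4.3.3), with filterByExpr (minimum count 10, minimum total 15), TMM scaling, the quasi-likelihood test with group as the only term and two-sided Benjamini-Hochberg adjusted p under 0.05. SE is the log2 fold change divided by the square root of F. CPM values carry TMM factors. The steps were tested on simulated data. Alternatives were other scalings (median ratio, nuclear genes, the mitochondrial sum), filters (none, mean of at least 1 CPM), the 2 compared groups alone, a replicate block, DESeq2 1.42.0, limma 3.58.1 on log2(FPKM + 1), and leaving out each mouse. Adding the counts of chromosome 1 copies, leaving out CONTROL mice, MPTP_IRISIN against IRISIN and further settings of the interaction were added after seeing the data.

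Named with full statistics were called members and, of the 15 protein and rRNA genes, those with the smallest p, the largest rise and the largest fall. Also named were the 3 highest and 3 lowest tRNAs, and others chosen after their values were seen (mt-Tr, mt-Tf, mt-Ty, mt-Te, mt-Ts1, mt-Tq, mt-Td, mt-Tc, mt-Ti, mt-Ta, mt-Tm, mt-Tw and mt-Nd4). No 2 mice of the same group were alike within sampling noise (smallest chi-square per gene 37.5), and mice of different groups were not compared in this way. Sequences were aligned with Biopython 1.88. Counting precision is not limiting for the protein genes and rRNAs, and tRNAs with under 100 counts are less precise.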

Additional observations from a re-analysis of the deposited data

How the results depend on the processing

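No member was called in either pre-treatment comparison or in MPTP_IRISIN against IRISIN under any setting. For MPTP against CONTROL, 1 member was called with median ratio scaling, with no filter, with a mean of at least 1 CPM and with the replicate block, 0 with the 2 compared groups alone and 6 with DESeq2, and 1 to 3 without 1 mouse each (3 without CONTROL replicate 1). For IRISIN against CONTROL, 0 were called with the 2 compared groups alone and 2 with DESeq2 or limma. For MPTP_IRISIN against MPTP, DESeq2 called 1. The interaction gave 1 with scaling by the mitochondrial sum or DESeq2 and 0 to 1 without 1 mouse each (1 without CONTROL replicate 3). Scaling by the mitochondrial sum moved the median log2 fold change of all genes to 0.25, 0.13 and -0.13 in MPTP against CONTROL, IRISIN against CONTROL and MPTP_IRISIN against MPTP.

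Values near 0 changed sign. Ranges here are over fits that each leave out 1 mouse. In MPTP_M against Control_M, mt-Rnr2 was at 0.0788 with scaling by the mitochondrial sum and 0.00116 with limma, and at -0.0543 to 0.0680 without 1 mouse each, above 0 without Control_M replicates 2 or 3 or MPTP_M replicate 2. In MPTP against CONTROL, mt-Rnr1 ranged from -0.0287 to 0.0671, below 0 without CONTROL replicate 1 or MPTP replicate 2, and reached 0.278 with scaling by the mitochondrial sum. In MPTP_IRISIN against MPTP, mt-Nd3 ranged from -0.116 to 0.0889, above 0 without MPTP replicate 1 or MPTP_IRISIN replicate 1, and reached -0.151 with scaling by the mitochondrial sum. In MPTP_IRISIN against IRISIN, mt-Rnr2 ranged from -0.168 to 0.0188, above 0 without IRISIN replicate 1, and mt-Atp6 from -0.00922 to 0.0929, below 0 without MPTP_IRISIN replicate 3. In the interaction, mt-Nd3 ranged from -0.107 to 0.0977, above 0 without CONTROL replicate 2 or replicate 1 of IRISIN, MPTP or MPTP_IRISIN, and was at -0.279 with scaling by the mitochondrial sum and at 0.121 with chromosome 1 copies added. The cause was not tested.

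Group mean shares moved with what was summed. In the order Control_M, MPTP_M, Irisin_MPTP_M, CONTROL, IRISIN, MPTP and MPTP_IRISIN, they were 15.3, 14.4, 14.7, 11.7, 10.6, 9.99 and 10.8% with copies added, and 31.9, 31.1, 31.3, 24.6, 23.7, 22.3 and 23.9% of summed FPKM. For the 13 protein genes alone they were 10.7, 10.0, 10.4, 8.33, 7.53, 7.07 and 7.65% in the same order.

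Same-numbered mice of different groups had r from -0.102 to 0.166 and from -0.0876 to 0.0527. Mice with different numbers had r from -0.148 to 0.178 and from -0.0565 to 0.101. The closest partner had the same number for 4 of 9 pre-treatment and 1 of 12 delayed mice. No pairing by number was seen, but with 3 mice per group this check cannot exclude it. The replicate block lost mt-Cytb, and it changed no other call. The tRNA counts, down to 16 for mt-Tg, and 3 mice per group limit the smaller differences.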
